A study of Sus scrofa with 24 samples.

Results

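The genes of the blood coagulation cascade and the complement system were examined in liver mRNA from 24 pigs, 1 library per pig. A list of 52 genes was matched by symbol to the deposited tables, and 25 of them had a row among the 13463 genes listed. The tables name 23 of the 25, and the other two, CFB and CFI, were named through the RefSeq gene table. The remaining 27 listed genes were not analysed here, among them FGA, F7, F10, PROC, C1R, C1S, C6 and C9, so each pathway is seen in part only. All 25 passed the filter on low counts, the lowest count being 116 for F3 in 1 library.

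The pigs were hybrids of Large White, Landrace and Duroc, and the study asked whether injected steroid esters leave a trace in liver transcripts. Sustanon, a mixture of testosterone esters, was given to 8 pigs at 4 mg/kg (3 castrated boars, T1 to T3; 3 sows, T4 to T6; 2 uncastrated boars, T19 and T20). Myodin, a nandrolone ester, was given to 8 pigs at 5 mg/kg (2 castrated boars, N8 and N9; 3 sows, N10 to N12; 3 uncastrated boars, N22 to N24), and 8 pigs were untreated (3 castrated boars, C13 to C15; 3 sows, C16 to C18; 2 uncastrated boars, C25 and C27). Treated pigs received 5 intramuscular injections 4 days apart from day 94, after an earlier trial injection, and all pigs were slaughtered 4 days after the last one. Each treatment group was penned separately and the untreated pigs were kept in a separate room, so treatment and housing cannot be told apart. The products were given at different doses, so comparing them compares the treatments as given. Castrated boars and sows, which have no testes, are pooled below where the uncastrated boars are kept apart.

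Most clotting factors and complement proteins of the blood are made by hepatocytes and secreted as inactive precursors. In coagulation, a chain of proteases ends in thrombin, which turns fibrinogen into fibrin, while plasmin dissolves the clot and serpins and macroglobulins hold the proteases in check. In complement, the classical, lectin and alternative routes meet at C3, and cleavage of C5 then starts assembly of the membrane attack complex. Several clotting factors need a carboxylation step that uses vitamin K as a cofactor.

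Libraries held 9267780 to 14017276 counted reads, with a median of 10260005. The 10 most abundant genes took 20.04% to 32.46% of the counts. Counts of the Y-linked genes EIF1AY and KDM5D went against the labelled sex in 3 untreated libraries. The library labelled castrated boar C15 had 1 and 0 reads, the library labelled sow C16 had 476 and 35, and the library labelled sow C18 had 434 and 95. By their labels all 3 belong to the class without testes, but these counts cannot tell a castrated from an uncastrated boar. Calls in comparisons that use them are given with and without these libraries, except for leukocyte markers. Hepatocyte markers (8 tested) summed to 116748 to 225504 TPM. TPM is a share of all transcripts corrected for length and scaled to the same total in each library. None of the 8 was called in any comparison, where 0% to 5.43% of all genes were called. Their shifts at an unadjusted p are given with F5. In whole liver, fewer cells of a type and less RNA per cell cannot be told apart.

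As levels, compared between genes as TPM, the means of the 25 genes ranked between 5 and 2505 among the 13463 genes. The fibrinogen chains FGB and FGG stood highest, with a median of 17422 TPM (8479 to 30383) and 14124 TPM (8149 to 24033). Their mean levels ranked 5 and 8. C3, the protein on which the complement routes converge, followed with a median of 4642 TPM (3139 to 6492). The C1 inhibitor SERPING1 had 3930.0 TPM (2803 to 5642) and plasminogen, PLG, had 2619 TPM (1765 to 3385). Antithrombin, SERPINC1, had 2352 TPM (1946 to 2986), complement factor B, CFB, had 1871 TPM (1499 to 2245), and the protein C inhibitor SERPINA5 had 1675 TPM (1155 to 2105).

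At the low end stood tissue factor, F3, the cell-surface trigger of coagulation, with 27.5 TPM (9.56 to 54.5). Properdin, CFP, which stabilises the alternative-route convertase, had 47.9 TPM (27.5 to 91.3), and factor D, CFD, the protease that cleaves factor B, had 65.0 TPM (43.5 to 83.6). Factor V, F5, the cofactor that speeds thrombin formation, had 83.1 TPM (50.2 to 135), and VKORC1, the enzyme that regenerates reduced vitamin K, had 89.6 TPM (41.2 to 122). The other 12 genes lay between these groups, with medians from 97.7 TPM for MASP2 to 1341 TPM for A2M.

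**Figure D1:**
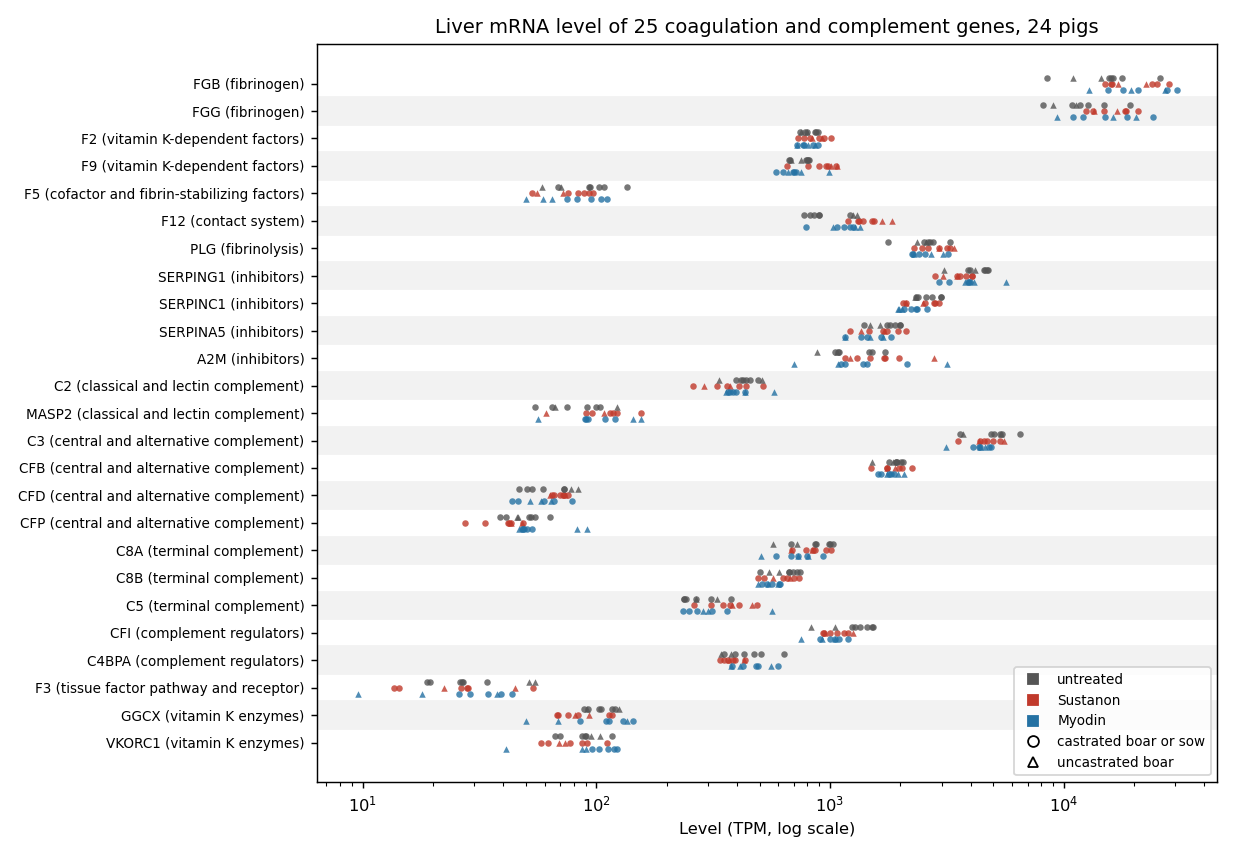
Level of each gene in each of the 24 libraries, in TPM on a log axis, with genes grouped by role, colour for treatment and shape for uncastrated boars against castrated boars and sows. FGB and FGG lie at the right, between 8149 and 30383 TPM, and F3 lies at the left, between 9.56 and 54.5 TPM.

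Together the 25 genes took 4.04% to 7.74% of a library's TPM, with a median of 5.65%. Fibrinogen alone ranged from 1.68% in C18 to 5.48% in N8, and FGB and FGG made up 32.2% and 24.7% of the summed mean level of the 25. C3 ranged from 0.316% to 0.653%. The median share of all 25 genes was 6.29% in Sustanon pigs, 6.01% in Myodin pigs and 5.52% in untreated pigs, and the 3 ranges overlapped (5.09% to 7.74%, 4.63% to 7.71% and 4.04% to 7.55%).

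**Figure D2:**
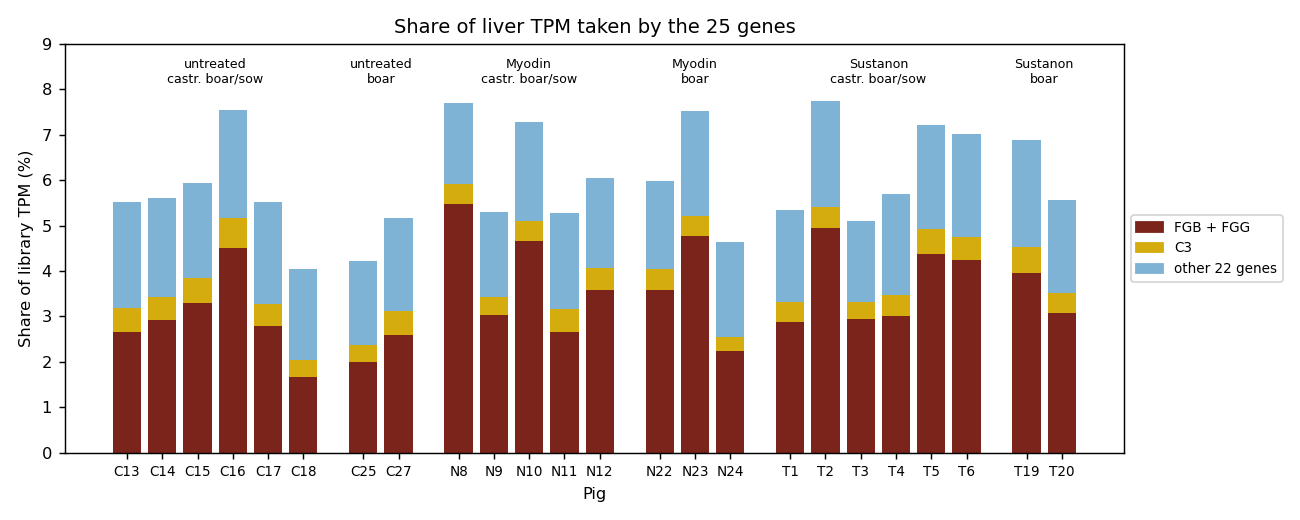
Share of library TPM, in percent, taken by FGB and FGG, by C3 and by the other 22 genes, 1 stacked bar per pig and pigs grouped by treatment and class. The summed share runs from 4.04% in C18 to 7.74% in T2, and the fibrinogen bars run from 1.68% to 5.48%.

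Within groups, the median spread of these genes was near that of all genes tested. The genes tested include many of lower level, and spread at matched level was not compared. The SD of log2 CPM (a gene's counts scaled to library size) within groups had a median of 0.277 over the 25 genes and 0.287 over the 8754 genes tested. Prothrombin, F2, varied least at 0.190. The largest spread was that of F3 at 0.564, followed by the protease trap A2M at 0.524, FGG at 0.461 and FGB at 0.457. A2M ran from 2277 CPM in C25 to 9840.0 CPM in N23.

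Few of the 25 genes differed between groups, and all differences were under 1 on the log2 scale. A gene was called where the quasi-likelihood test of edgeR, adjusted over all genes tested, gave p under 0.05. For Sustanon against untreated pigs, 8 against 8, 1 of 25 was called (F12), against 5.07% of all 8279 genes. For Myodin against untreated pigs none of 25 was called, and the share of all genes called was 0%. Sustanon against Myodin gave none of 25, against 0.664% of all genes. Without uncastrated boars, Sustanon against untreated, 6 against 6, called 2 of 25 (F12 and CFI) against 5.43% of 8754 genes. Myodin against untreated in the same classes gave none, against 0.0914%, and Sustanon against Myodin gave none, against 2.43%. Uncastrated boars against castrated boars and sows among the 16 pigs without Sustanon, 5 against 11, called 2 of 25 (F5 and CFI), against 4.95% of all genes.

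The last comparison asked whether the Sustanon difference in uncastrated boars differed from that in castrated boars and sows, and none of 25 was called, against 0.0457% of all genes. By edgeR's p before adjustment, taken under 0.05, the counts in the same order were 3, 3, 4, 4, 3, 4, 5 and 1 of 25, against 19.6%, 7.21%, 18.1%, 19%, 10.1%, 19.4%, 20.1% and 6.92% of the genes tested. With a log2 fold change of at least 1 in size added to the adjusted p, a fold threshold that the study also used, the count was 0 of 25 in each comparison, against 1.56%, 0%, 0.205%, 2.02%, 0.0343%, 1.04%, 1.26% and 0.0457%. Where edgeR called none, DESeq2 also called none except for 1 gene in Sustanon against Myodin over all pigs, and limma on the deposited log2 values called none. The treatment comparisons share the untreated pigs, and the comparison of boars reuses untreated and Myodin pigs.

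As differences, the 25 genes lay close to the middle of all genes in the treatment comparisons. The median log2 fold change of the 25 was -0.03 for Sustanon and -0.03 for Myodin against untreated over all pigs, where the medians of all genes tested were -0.01 and 0.00. In Sustanon against untreated pigs 10 of 25 were higher, against 48.1% of all genes tested. In Myodin against untreated pigs 12 of 25 were higher, against 51.2%. Between -0.5 and 0.5 lay 24 of 25 genes in each of those comparisons, and the share of all genes there was not computed. In uncastrated boars against castrated boars and sows the median was -0.15 and 7 of 25 were higher. The median of all genes there was -0.00 and 49.5% were higher. For the Sustanon difference in uncastrated boars minus that in castrated boars and sows the median was 0.22 and 19 of 25 were higher, where the median of all genes was -0.00, and that comparison rests on 2 boars in each group.

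**Figure D3:**
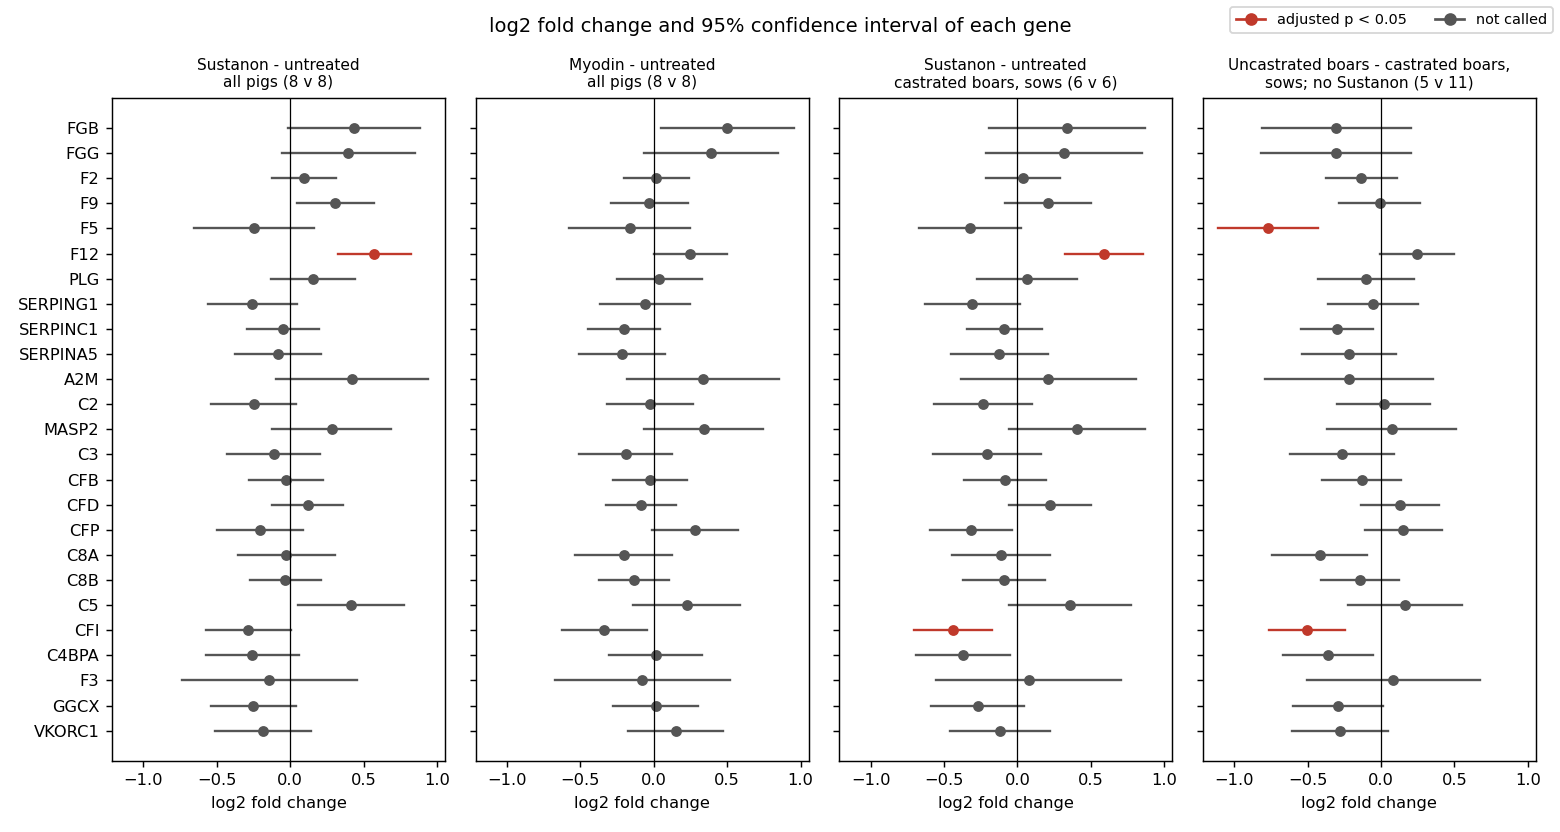
The log2 fold change (point) and its 95% confidence interval (line) of the 25 genes in 4 comparisons, with called genes in red. F12 is called in both Sustanon panels at 0.57 and 0.59, CFI at -0.44 and -0.50 in the 2 panels on the right, and F5 at -0.77 in the panel of uncastrated boars, while every other interval belongs to a gene that was not called.

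Fibrinogen, the precursor of the fibrin mesh, was not called in any comparison. FGB (chr8:74598170-74607409, Sscrofa11.1) had 12815 to 36501 CPM in untreated pigs (median 20268), 21605 to 39878 in Sustanon pigs (median 28334) and 20401 to 45043 in Myodin pigs (median 28818). All 8 Sustanon pigs and all 8 Myodin pigs lay above the untreated median, but only 2 and 3 of them lay above every untreated pig. Log2 fold changes were 0.44 (SE 0.22, edgeR adjusted p = 0.273) for Sustanon and 0.50 (SE 0.22, edgeR adjusted p = 0.627) for Myodin. The latter was 0.67 without C15, C16 and C18, also not called. FGG (chr8:74553040-74562151) had log2 fold changes of 0.40 and 0.39, with edgeR adjusted p of 0.338 and 0.739. The intervals for Sustanon, -0.01 to 0.89 for FGB and -0.06 to 0.85 for FGG, leave room for no difference and for a sizeable one.

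FGB and FGG lie 36018 bp apart and their levels moved together from pig to pig. Over 24 libraries Pearson's r of log2 CPM was 0.978 and Spearman's rho was 0.965, each with a permutation p of 1e-05, the smallest that the permutations can give, and 3e-05 after adjustment over 3 pairs. Without C18 and C25, the libraries farthest from the median of FGB, r was 0.969. Within Sustanon, Myodin and untreated pigs r was 0.952, 0.981 and 0.994. Both other neighbouring pairs were more loosely tied. C8A and C8B, which encode chains of the same complement component on chromosome 6, gave r = 0.712 (permutation p = 1e-04, adjusted 0.0001) and rho = 0.739. That r was 0.699, 0.383 and 0.901 within the 3 treatments, and 0.689 without C15 and C27. C2 and CFB, the paralogous convertase proteases 34 bp apart on chromosome 7, gave r = 0.542 (permutation p = 0.0063, adjusted p = 0.0063) and rho = 0.509, falling to r = 0.449 without T20 and N24. Within treatments that r was 0.378, 0.709 and 0.753. Reads at the border of such close genes could be split between them by the counting. Other pairs of genes were not correlated, so whether neighbours go together more than other members was not tested.

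**Figure D4:**
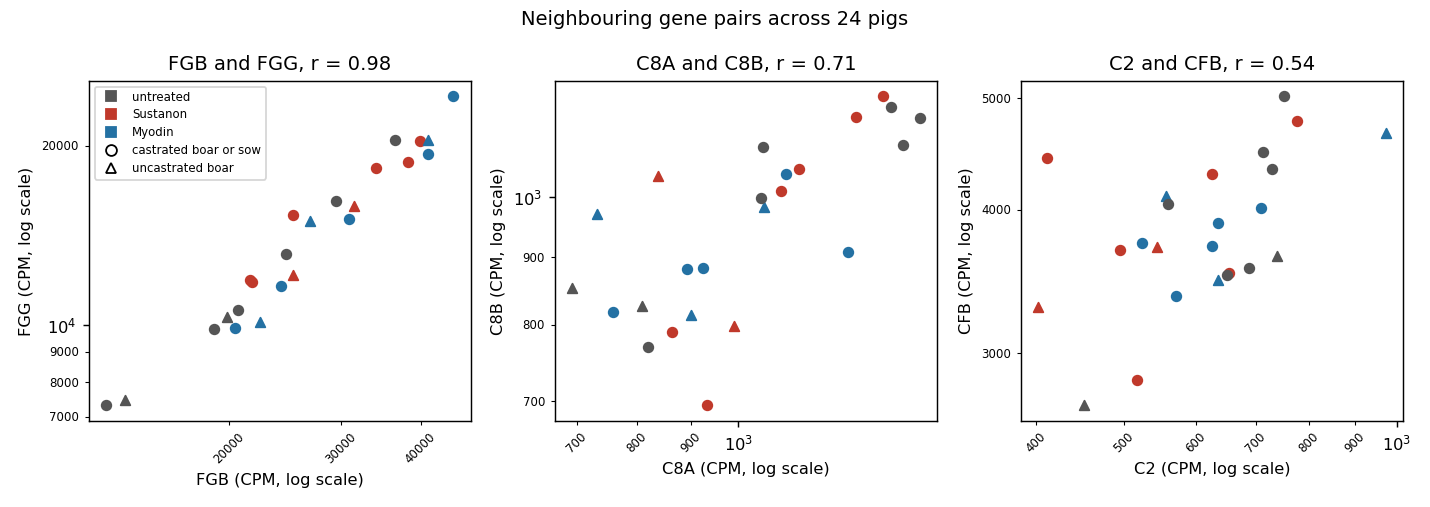
Levels in CPM on log axes of the neighbouring pairs FGB and FGG, C8A and C8B, and C2 and CFB, 1 point per pig. The fibrinogen points lie along 1 line (r = 0.98), while those of C8A and C8B (r = 0.71) and C2 and CFB (r = 0.54) scatter more widely.

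The vitamin K-dependent factors in the tables were F2, the thrombin precursor, and F9, the factor missing in haemophilia B. Neither was called. F9 (chrX:114218704-114250436) had 1027 to 1837 CPM in Sustanon pigs (median 1659), 1061 to 1732 in Myodin pigs (median 1181) and 1044 to 1594 in untreated pigs (median 1289.8). In the Sustanon group 7 of 8 pigs lay above the median of either other group, and 1, T3, lay below every pig of both. F9 had a log2 fold change of 0.31 (SE 0.13, edgeR adjusted p = 0.171) against untreated and 0.34 (SE 0.13, edgeR adjusted p = 0.166) against Myodin. In castrated boars and sows it was 0.39 against Myodin (edgeR adjusted p = 0.148), and without T3 it was 0.50 (edgeR adjusted p = 0.0365). Of 24 fits that left out 1 library, 23 did not call it, with edgeR adjusted p up to 0.283. F2 ranged over all comparisons from -0.13 to 0.20.

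The enzymes that serve those factors, GGCX, which adds the carboxyl groups, and VKORC1, were not called either. In castrated boars and sows VKORC1 (chr3:17386230-17389162) had 426, 428, 399.8, 416 and 367 CPM in the 5 Myodin pigs, 220.2 to 389.8 in the 6 Sustanon pigs (median 284) and 272 to 397 in the 6 untreated pigs (median 297). Of the Myodin pigs, 4 of 5 lay above every pig of both other groups. VKORC1 had a log2 fold change of -0.48 (SE 0.17, edgeR adjusted p = 0.124) for Sustanon against Myodin and 0.36 (SE 0.17, edgeR adjusted p = 0.486) for Myodin against untreated. The latter was 0.21 without C15, C16 and C18 (edgeR adjusted p = 0.954). The 3 Myodin boars did not share the high level, with 297, 152 and 363 CPM. GGCX (chr3:59202363-59219807) had 426, 474, 335, 497 and 432 CPM in Myodin castrated boars and sows and 261 to 399 (median 309) in their Sustanon counterparts, a log2 fold change of -0.42 (SE 0.16, edgeR adjusted p = 0.152). All 6 Sustanon pigs lay below the Myodin median of 432 CPM.

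F5 was lower in uncastrated boars than in castrated boars and sows among pigs without Sustanon. It lies at chr4:81403273-81484908. The boars had 263 and 238 CPM untreated and 267, 263 and 243 CPM with Myodin, a mean of 255 ± 13.5 (SD, n = 5). The 11 castrated boars and sows had 276 to 555 CPM with a median of 441 and a mean of 435 ± 86.9 (SD, n = 11). The groups did not overlap, although the lowest of the 11, C18 at 276 CPM, was close to the boars. C18 was also the lowest of the 6 untreated castrated boars and sows in CFI and in FGB and the highest in F12. This gave a log2 fold change of -0.77 (SE 0.16, 95% confidence interval -1.11 to -0.43, edgeR adjusted p = 0.00931).

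The F5 call held without C15, C16 and C18, with a log2 fold change of -0.81 and an edgeR adjusted p of 0.0107. It was lost without C25 (-0.80, edgeR adjusted p = 0.0562) or C27 (-0.73, edgeR adjusted p = 0.0897), each of which leaves 1 untreated boar. It was also lost with a term for sows added (-0.63, edgeR adjusted p = 0.0511), a term coded from the labelled sex that the Y-linked counts go against in C15, C16 and C18. Against untreated pigs, Sustanon castrated boars and sows had a mean of 359 ± 82.0 CPM (SD, n = 6) against 449 ± 103 (SD, n = 6), a log2 fold change of -0.32 (SE 0.17, edgeR adjusted p = 0.305). The Sustanon boars had 297 and 222 CPM.

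Hepatocyte marker levels also varied among these pigs. They summed to 116748 to 162720 TPM in the 3 Myodin boars and to 182631 and 204359 TPM in the 2 untreated boars, against 122353 to 215104 TPM in Myodin and 177604 to 225504 TPM in untreated castrated boars and sows. None of the 8 marker rows was called for the boars, against 4.95% of all genes. At an unadjusted edgeR p under 0.05, 2 of 8, ALB (-0.43) and TAT (-0.68), were lower, against 20.1% of all genes. F5 was as low in the untreated boars as in the Myodin boars. At the same unadjusted p, Sustanon against Myodin gave 3 of 8 markers higher over all pigs (median of the 8 0.39), against 18.1% of all genes. In castrated boars and sows 4 of 8 were higher (median 0.30), against 19.4%. Myodin against untreated gave 3 of 8 lower there (median -0.21), against 10.1%. Sustanon against untreated gave 1 of 8 lower over all pigs, against 19.6%, and 1 of 8 lower there, against 19%. The part of these markers in the differences of F5, CFI, F9, VKORC1, GGCX and CFP was not tested.

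F12 was the only member called higher in Sustanon than in untreated pigs. It encodes factor XII, the protease that starts the contact route of clotting and acts on the kallikrein-kinin system, and lies at chr2:80527451-80544835. Sustanon pigs had 1364 to 2090.4 CPM (median 1819, mean 1798 ± 229.7, SD, n = 8), untreated pigs 1046 to 1466 CPM (median 1144, mean 1214 ± 173, SD, n = 8) and Myodin pigs 1032 to 1846 CPM (median 1459, mean 1455 ± 266, SD, n = 8). Of the Sustanon pigs 7 of 8 lay above every untreated pig, and T3 at 1364 CPM was the exception. F12 had a log2 fold change of 0.57 (SE 0.12, 95% confidence interval 0.33 to 0.82, edgeR adjusted p = 0.0114) over all pigs and 0.59 (SE 0.13, edgeR adjusted p = 0.00789) in castrated boars and sows.

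F12 was higher with Sustanon in each labelled class of pig. The log2 ratio of mean CPM, Sustanon over untreated, was 0.55 in castrated boars (3 against 3), 0.63 in sows (3 against 3) and 0.51 in uncastrated boars (2 against 2). It was 0.56 in castrated boars (3 against 2) and 0.80 in sows (3 against 1) without C15, C16 and C18. The test of the Sustanon difference in boars against that in the other classes gave -0.08 (95% confidence interval -0.61 to 0.45, edgeR adjusted p = 0.964). With Myodin the same log2 ratios were 0.08, 0.39 and 0.13, and the log2 fold change over all pigs was 0.25 (SE 0.12, edgeR adjusted p = 0.687). Sustanon against Myodin gave 0.32 (SE 0.12, edgeR adjusted p = 0.158), so a difference between both treatments was not shown. With the sex class as covariate that comparison gave 0.37 with an edgeR adjusted p of 0.0376. Untreated boars, at 1386 and 1466 CPM, stood above 5 of the 6 untreated castrated boars and sows (1046 to 1148 CPM) and near the sixth, C18, at 1394 CPM. In boars against the other classes without Sustanon, the log2 fold change of F12 was 0.25 (SE 0.12, edgeR adjusted p = 0.256).

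Leaving out any 1 library kept the F12 call over all pigs, with edgeR adjusted p up to 0.0311. Without C15, C16 and C18 together the log2 fold change was 0.56 with an edgeR adjusted p of 0.116. No gene of any kind was then called for Sustanon against untreated over all pigs. In castrated boars and sows the call remained without those libraries, at 0.67 with an edgeR adjusted p of 0.0438.

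**Figure D5:**
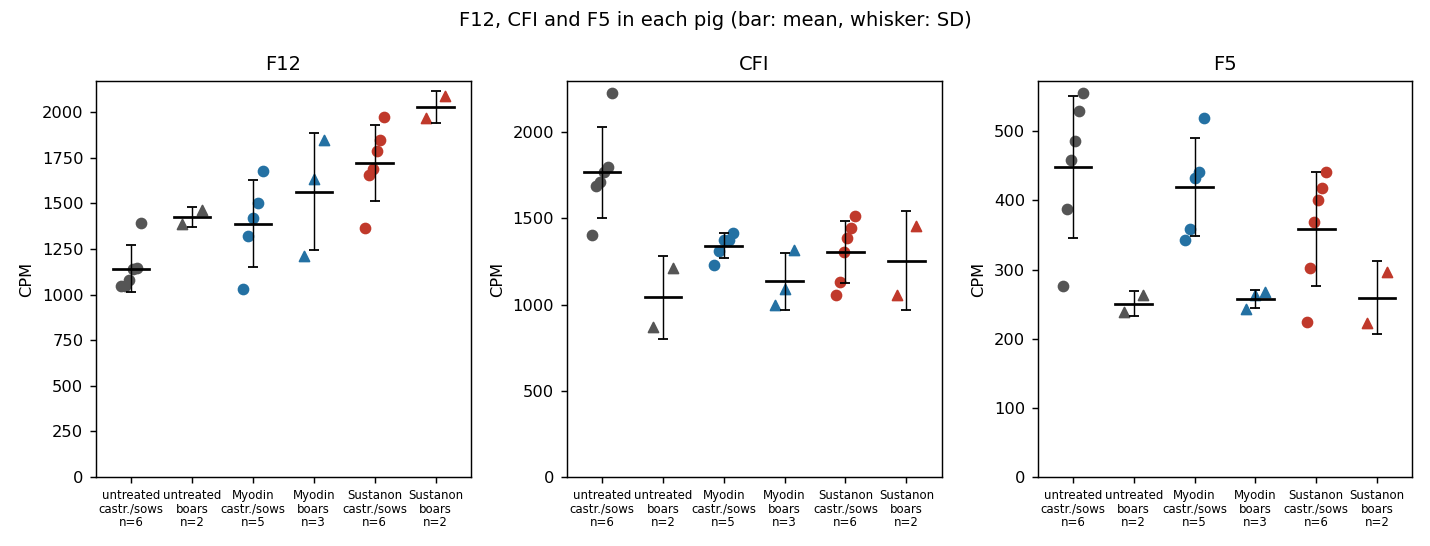
Level in CPM, from 0, of F12, CFI and F5 in each pig by treatment and class (castrated boars with sows, or uncastrated boars), with the group mean as a bar and the SD as a whisker. F12 is highest in the Sustanon groups, CFI is highest in untreated castrated boars and sows (1404 to 2226 CPM), and F5 is at 238 to 267 CPM in the 5 uncastrated boars without Sustanon.

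Among the fibrinolysis and inhibitor genes, none was called in any comparison. PLG, the plasmin precursor, had log2 fold changes of 0.16 (SE 0.14) for Sustanon and 0.04 (SE 0.14) for Myodin against untreated pigs. SERPINC1, the main inhibitor of thrombin, was at -0.05 and -0.20 in those comparisons and at -0.30 (SE 0.12, edgeR adjusted p = 0.144) in uncastrated boars, where 4 of 5 boars lay below all 11 castrated boars and sows. SERPING1 was at -0.26 and -0.06, SERPINA5 at -0.08 and -0.22, and A2M at 0.42 (SE 0.25) and 0.34 (SE 0.25).

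In the early steps of complement, none of the genes was called. C2, shared by the classical and lectin routes, was at -0.25 (SE 0.14) for Sustanon and -0.03 for Myodin against untreated pigs. The lectin-route protease MASP2 was at 0.28 (SE 0.20) and 0.34 (SE 0.20). C3 was at -0.11 and -0.19, CFB at -0.03 and -0.03, and CFD at 0.12 and -0.09.

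Properdin came nearest to a call in Sustanon against Myodin. CFP (chrX:42145754-42152879) had 41.9 to 67.0 CPM in Sustanon pigs (median 57.5), 60.9 to 123 in Myodin pigs (median 66.9) and 52.9 to 77.3 in untreated pigs (median 65.1). Of the Sustanon pigs 6 of 8 lay below every Myodin pig, and the Myodin boars N23 and N24 stood far above the rest at 115 and 123 CPM. The log2 fold change was -0.48 (SE 0.14, edgeR adjusted p = 0.0857), and DESeq2 gave -0.48 with an adjusted p of 0.0486. Properdin is known to come mainly from leukocytes. The markers of Kupffer cells and macrophages (6 of 10 in the tables) summed to 986 to 1400.0 TPM in Sustanon pigs, 1342 to 2318 in Myodin pigs and 1037 to 1398 in untreated pigs. Of these markers 2 of 6, C1QA and C1QC, were called lower in Sustanon than in Myodin pigs, against 0.664% of all genes. No marker was at 0 in every library, and the part of these cells in the CFP difference was not tested.

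The terminal components C5, C8A and C8B, which build the membrane attack complex, were not called. C5 (chr1:260995662-261088868) had 825 to 1578 CPM in Sustanon pigs (median 1207) and 706 to 1381 in untreated pigs (median 853). Of 8 Sustanon pigs, 7 lay above the untreated median, and the log2 fold change was 0.42 (SE 0.18, edgeR adjusted p = 0.184). The highest C5 level, 1869 CPM, was in the Myodin boar N23. C8A (chr6:155464855-155530473) was at 808 and 693 CPM in untreated boars, 900.4, 1058 and 732 CPM in Myodin boars, and 759 to 1492 CPM (median 1057) in the 11 castrated boars and sows without Sustanon. The ranges overlapped, and the log2 fold change was -0.42 (SE 0.16, edgeR adjusted p = 0.129).

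CFI was highest in untreated castrated boars and sows. It encodes factor I, the protease that cuts C3b and C4b and so damps complement, and lies at chr8:112430824-112470844. Those 6 pigs had 1404 to 2226 CPM with a median of 1741 and a mean of 1767 ± 265 (SD, n = 6). The 6 Sustanon castrated boars and sows had 1058 to 1512 CPM with a median of 1346 and a mean of 1306 ± 178 (SD, n = 6). All 6 lay below the untreated median and 4 lay below every untreated pig of those classes. The log2 fold change was -0.44 (SE 0.13, 95% confidence interval -0.70 to -0.17, edgeR adjusted p = 0.0479).

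That call sat at the threshold. It was lost in 17 of 24 fits that left out 1 library, with edgeR adjusted p up to 0.115, where the log2 fold change ran from -0.48 to -0.36. Without C15, C16 and C18 it was -0.43 with an edgeR adjusted p of 0.153. With Myodin the values in castrated boars and sows were 1378, 1376, 1230.0, 1416 and 1312 CPM, a mean of 1343 ± 73.2 (SD, n = 5). Of these 5, 4 lay below every untreated pig of those classes, and the log2 fold change was -0.40 (SE 0.14, edgeR adjusted p = 0.291).

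In uncastrated boars without Sustanon CFI was also lower. The levels were 873 and 1211 CPM in untreated boars and 1090.2, 1315 and 998 CPM in Myodin boars, a mean of 1097 ± 173 (SD, n = 5), against 1230.0 to 2226 CPM (median 1416, mean 1574 ± 294, SD, n = 11) in castrated boars and sows. In untreated pigs the mean was 1042 CPM in boars, 1734 in castrated boars and 1800 in sows, by label. In Myodin pigs these means were 1134, 1377 and 1319 CPM, a narrower gap. The difference was not tested within each treatment. Of all boars without Sustanon 4 of 5 lay below all 11 castrated boars and sows. The log2 fold change was -0.50 (SE 0.12, 95% confidence interval -0.76 to -0.24, edgeR adjusted p = 0.0221). Without C15, C16 and C18 it was -0.50 with an edgeR adjusted p of 0.0334. It was no longer called without C25 (-0.39, edgeR adjusted p = 0.186), without N24 (-0.46, edgeR adjusted p = 0.0502) or with the term for sows by labelled sex (-0.47, edgeR adjusted p = 0.0736). The hepatocyte marker sums of the same boars are given with F5.

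Sustanon boars had 1457 and 1054 CPM of CFI, so the log2 ratio of means to untreated boars was 0.27, where it was -0.49 in castrated boars and -0.39 in sows. The test of that difference between boars and the other classes gave 0.70 (SE 0.26, 95% confidence interval 0.17 to 1.24), with an unadjusted p of 0.0118 and an edgeR adjusted p of 0.516. Each boar group held 2 pigs here, and the value ran from 0.45 without T19 to 0.96 without C27. A difference in response between the classes was therefore not called.

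C4BPA, a chain of the inhibitor that binds C4b, was not called. It had 442 to 681 CPM in Sustanon castrated boars and sows (median 511) and 573 to 999.9 CPM in untreated ones (median 638). Of the Sustanon pigs 5 of 6 lay below every untreated pig of those classes, and the log2 fold change was -0.37 (SE 0.15, edgeR adjusted p = 0.181). It was -0.23 without C16 (edgeR adjusted p = 0.401), the untreated pig with the highest level, and -0.28 without C15, C16 and C18 (edgeR adjusted p = 0.470). In uncastrated boars without Sustanon it was -0.36 (SE 0.15, edgeR adjusted p = 0.165). F3, the remaining member, was at -0.14 (SE 0.29) and -0.08 (SE 0.29) for Sustanon and Myodin against untreated pigs and had the widest interval of all.

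Other genes of these pathways were followed from separate lists. Of 26 further coagulation and fibrinolysis genes 18 were in the tables, and HGFAC, whose product is a serine protease related to factor XII, was the 1 called. It was lower with Sustanon in castrated boars and sows (-0.40, SE 0.11, edgeR adjusted p = 0.0379), 1 of 18 against 5.43% of all genes, and lower in uncastrated boars (-0.38, SE 0.11, edgeR adjusted p = 0.0473), 1 of 18 against 4.95%. Neither call held without C15, C16 and C18 (-0.37 and -0.36, edgeR adjusted p = 0.222 and 0.101), and 12 and 20 of 24 fits that left out 1 library lost it. The median of the 18 was 0.06 for Sustanon against untreated over all pigs, where none was called in edgeR and 3 had an unadjusted p under 0.05, against 19.6% of all genes.

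Of 26 further complement genes 15 were in the tables. The lectin-route ficolin FCN2 was lower with Sustanon over all pigs (-0.93, SE 0.25, edgeR adjusted p = 0.0283), 1 of 15 against 5.07% of all genes. Without C15, C16 and C18 it was at -1.05 with an edgeR adjusted p of 0.117, and the call was lost in 7 of 24 fits without 1 library. The C1q chains C1QA (-0.62, edgeR adjusted p = 0.0321) and C1QC (-0.59, edgeR adjusted p = 0.0399) were lower in Sustanon than in Myodin pigs, 2 of 15 against 0.664% of all genes, where the median of the 15 was -0.37 and of all genes -0.00. Both chains are also in the list of macrophage markers, so these are the same 2 calls given with CFP. They were at -0.63 and -0.59 without those 3 libraries (edgeR adjusted p = 0.0444 and 0.0585), and leaving out 1 library ended the calls in 8 and 11 of 24 fits.

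Of 8 genes that support the vitamin K cycle 5 were tested. For Sustanon against untreated, 2 of 5 were called lower over all pigs, against 5.07% of all genes. In castrated boars and sows 2 of 5 were also called lower, against 5.43%. NQO1, a quinone reductase, was lower with Sustanon over all pigs (-1.34, SE 0.32, edgeR adjusted p = 0.0169) and in castrated boars and sows (-1.33, SE 0.35, edgeR adjusted p = 0.0278). Both calls were lost without C15, C16 and C18 (-1.09 and -1.08, edgeR adjusted p = 0.154 and 0.221). All 24 fits without 1 library kept the first call and 6 lost the second.

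Of 12 hepatocyte transcription factors tested, the estrogen receptor ESR1 was lower with Sustanon over all pigs (-0.77, SE 0.20, edgeR adjusted p = 0.0265) and in castrated boars and sows (-0.94, SE 0.20, edgeR adjusted p = 0.00582), 1 of 12 against 5.07% and 5.43% of all genes. The first call was lost without C15, C16 and C18 (-0.84, edgeR adjusted p = 0.117), as in 6 of 24 fits without 1 library, and the second held (-1.20, edgeR adjusted p = 0.0126) there and in all 24 such fits. The bile acid receptor NR1H4 was higher in Sustanon than in Myodin castrated boars and sows (0.62, SE 0.15, edgeR adjusted p = 0.0337), 1 of 12 against 2.43%. It was at 0.62 without C15, C16 and C18 (edgeR adjusted p = 0.0338), and 7 of 24 fits without 1 library lost the call.

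Of 6 genes of IL6 signalling, which drives the acute-phase output of the liver, the kinase JAK1 was higher with Sustanon over all pigs (0.39, SE 0.11, edgeR adjusted p = 0.0368), 1 of 6 against 5.07%. Without C15, C16 and C18 it was at 0.34 with an edgeR adjusted p of 0.180, and 10 of 24 fits without 1 library lost the call. Of 16 other secreted hepatocyte proteins, the HDL apolipoprotein APOA2 was higher with Sustanon (1.07, SE 0.28, edgeR adjusted p = 0.0251, and 1.03, SE 0.30, edgeR adjusted p = 0.0479, in castrated boars and sows). That was 1 of 16 in each comparison, against 5.07% and 5.43% of all genes. Those calls were lost without C15, C16 and C18 (0.98 in both, edgeR adjusted p = 0.170 and 0.243) and in 6 and 18 of 24 fits without 1 library.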

How the data were processed

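Liver mRNA (Spigelian lobe) of 24 pigs was sequenced as stranded poly(A) libraries. Per the labels and the study's methods, Skewer trimmed the reads and STAR 2.5 aligned them to Sscrofa11.1, both run through docker4seq. The authors deposited raw read counts per gene and a table of log2(TPM + 1). The counting tool is not given in the sources used here. Symbols missing from the tables (3779 rows) were filled from the RefSeq gene table of Sscrofa11.1 where an identifier matched (359 rows), and coordinates are those of that table.

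Counts were tested with edgeR 4.0.16 in R 4.3.3 (filterByExpr, TMM normalization, quasi-likelihood test, two-sided, Benjamini-Hochberg over all genes tested). The first fit had 3 treatment groups (8279 genes) and the second had 6 groups of treatment by presence of testes (8754 genes). All 24 libraries entered both fits. CPM in the text are TMM-scaled, and TPM are taken from the deposited log2 values. Neighbouring genes were correlated on log2 CPM with a prior of 0.5, with 100000 permutations. The tests were checked on simulated counts. Alternatives used RLE normalization, no filter, limma 3.58.1 on log2 values, DESeq2 1.42.0, added sex terms and left-out libraries. A log2 fold change of 1 or more in size, as the study used with a p that it does not state to be adjusted, was also required beside the adjusted p. Lists of other genes and ratios within classes were recomputed without C15, C16 and C18. The lists were also recomputed without each library in turn. Both were additions made after the data were seen.

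Values per library are given for members called in a comparison or, where fewer than 3 were called, for the 3 with the smallest p. Levels are given for the 8 highest and 5 lowest members. SERPINC1 in uncastrated boars was described after its values were seen. From the lists of other genes only called ones are named, while the hepatocyte markers ALB and TAT are named at an unadjusted edgeR p. Some called genes of those lists are not reported here. Members and lists were chosen with earlier results of these data known. Markers of liver endothelium, stellate, bile duct and red blood cells gave no call. Among leukocyte markers NKG7 was called lower in Sustanon than in Myodin pigs (-0.82), 1 of 5 tested against 0.664% of all genes. MS4A1 was called lower with Sustanon in castrated boars and sows (-1.16), 1 of 6 tested against 5.43%. Their values without C15, C16 and C18 are not given here. Skeletal muscle markers summed to 0.21 to 3.10 TPM, and the 4 pancreas markers were not analysed here. In 1 list the row named VWF carries an identifier that the RefSeq table gives to another gene, so its value is uncertain.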

Additional observations from a re-analysis of the deposited data

Results flagged for a closer look

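In 33 checks of a group's highest or lowest pig, 2 pigs stood far from the rest of their group, a number near what chance gives at a rate of about 1 in 20. F12 in C18 was 1394 CPM, the highest of the 6 untreated castrated boars and sows, whose next highest was 1148 CPM. C4BPA in C16 was 999.9 CPM, the highest of the same 6, whose next highest was 656 CPM. Both are libraries labelled sow in which the counts of Y-linked genes went against the label. Any link between the label and these levels was not tested.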

How the results depend on the processing

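No log2 fold change of a named member reversed: 719 values kept direction and side of the threshold, 29 lost the call and 5 gained it. Most of these values had no call in the main fit, so only F12, CFI and F5 had calls to lose. CFI in Sustanon against untreated castrated boars and sows kept its call in 7 of 24 fits without 1 library and 2 of 7 other settings. For F12 these were 24 of 24 and 7 of 7 there, and 24 of 24 and 7 of 8 over all pigs. The lost calls of F5 and CFI in uncastrated boars are given above. For Sustanon against untreated over all pigs the count of called members was 1, and it was 0 without C15, C16 and C18, where 0 genes were called instead of 420. For Sustanon against Myodin over all pigs it was 0, but 1 with the sex class as covariate (F12), 1 with DESeq2 (CFP) and 0 to 2 when 1 library was left out (2 without N23). For Sustanon against untreated castrated boars and sows it was 2, but 1 with RLE normalization, with no filter, without C15, without C15, C16 and C18, and with a term for sows, and 1 to 2 when 1 library was left out. For Sustanon against Myodin in those classes it was 0, and 0 to 1 when 1 library was left out (1 without T3 or N23). For uncastrated boars it was 2, but 0 with a term for sows and 0 to 3 when 1 library was left out (0 without C25, 1 without C27 or N24). Requiring an absolute log2 fold change of 1 left 0 members in all comparisons. At an unadjusted p under 0.05 the counts were 3, 3 and 4 over all pigs (Sustanon and Myodin against untreated, Sustanon against Myodin), 4, 3 and 4 in castrated boars and sows, 5 for uncastrated boars and 1 for the difference in response. The cause of these changes was not tested. Counts over all genes moved more. Over all pigs, Sustanon against untreated called 420 genes, 0 to 637 under the other settings and 198 to 613 when 1 library was left out, Myodin against untreated called 0 and 0 to 1, and Sustanon against Myodin called 55, 9 to 390 and 0 to 541. In castrated boars and sows these were 475, 124 to 633 and 295 to 560 for Sustanon against untreated, 8, 0 to 66 and 3 to 17 for Myodin against untreated, and 213, 146 to 479 and 57 to 441 for Sustanon against Myodin. Uncastrated boars gave 433, 199 to 648 and 86 to 645, and the difference in response gave 4, 2 to 36 and 0 to 6. No paired analysis was possible because the replicate numbers are animal numbers that occur in 1 group each. Groups of 2 or 3 boars limit what the comparisons with boars can show.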
